A study of Rattus norvegicus with 6 samples.

Results

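The insulin-like growth factor genes are described here in mesenterial adipose tissue, the visceral fat around the vessels of the gut, from newborn rats of 2 maternal diets. The set comprised 10 genes chosen by name: the ligands Igf1 and Igf2, the receptors Igf1r and Igf2r, and the binding proteins Igfbp2 to Igfbp7. Every probe set that the platform annotation gives to exactly 1 of these symbols was taken, which found all 10 genes among 14217 named genes and 23 probe sets among 31042. All animals were wildtype Sprague-Dawley rats, an outbred laboratory strain, and the labels separate the groups by the feed of their dams. Dams of the adequate group received 1000 IU of vitamin D per kg of feed (3 arrays) and dams of the deficient group 0 IU per kg (3 arrays). The labels name neither litter nor sex, and do not state that each array is a separate animal. The p-values may therefore reflect no more than the spread between these 6 samples, which could be technical.

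Insulin-like growth factors are small secreted proteins related to insulin that drive growth of the fetus and the newborn. Both ligands signal through the tyrosine kinase Igf1r, whereas Igf2r binds Igf2 and carries it to lysosomes for breakdown. In tissue fluid the ligands are mostly held by binding proteins, which lengthen their life and limit or direct their access to the receptor. In adipose tissue the ligands act on precursor cells, where they favour growth and fat cell formation. Igf2 is an imprinted gene, read from the paternal copy, and Igf2r is imprinted in the opposite sense in rodents.

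Upstream sequence is shown for 3 of the genes: Igf2, because its signal was the highest of the set and the table lists a pair of start sites for it, and Igf2r and Igfbp4, because theirs were the only windows with a match to the motifs searched. The sequences are the 250 bases before each listed start, from RefSeq on the GRCr8 assembly, 5′ to 3′ on the gene's strand. Capitals mark a motif match.
Igf2, first listed start, chr1:207253981-207254230, reverse strand: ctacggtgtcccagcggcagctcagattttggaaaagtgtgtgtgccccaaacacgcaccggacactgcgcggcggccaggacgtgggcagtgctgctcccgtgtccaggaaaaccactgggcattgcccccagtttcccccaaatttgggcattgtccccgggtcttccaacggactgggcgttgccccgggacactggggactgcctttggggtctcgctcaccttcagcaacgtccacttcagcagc
Igf2, the other listed start, chr1:207250476-207250725, reverse strand: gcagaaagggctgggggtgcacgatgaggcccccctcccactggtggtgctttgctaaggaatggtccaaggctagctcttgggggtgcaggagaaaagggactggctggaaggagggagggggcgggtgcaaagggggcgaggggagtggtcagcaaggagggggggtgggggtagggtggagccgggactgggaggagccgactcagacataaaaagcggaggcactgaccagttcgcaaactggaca
Igf2r, chr1:50526628-50526877, forward strand: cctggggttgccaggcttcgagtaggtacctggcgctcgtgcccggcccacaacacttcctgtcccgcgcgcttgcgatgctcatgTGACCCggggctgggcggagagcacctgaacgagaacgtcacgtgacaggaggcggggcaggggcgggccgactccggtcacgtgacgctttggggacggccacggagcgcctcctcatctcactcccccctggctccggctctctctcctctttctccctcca
Igfbp4, chr10:84491221-84491470, forward strand: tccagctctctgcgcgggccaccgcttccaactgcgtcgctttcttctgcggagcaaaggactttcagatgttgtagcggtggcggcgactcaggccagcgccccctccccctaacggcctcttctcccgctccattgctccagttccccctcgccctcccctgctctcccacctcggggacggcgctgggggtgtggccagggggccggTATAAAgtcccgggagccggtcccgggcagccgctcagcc
All 10 genes matched this table, with 11 windows. The TATA box motif TATAAA, searched on both strands, lay in 1 of the 11, 40 bases before the start of Igfbp4, and in 12.9% of the table's 33469 windows of the same length. The hexamers AGGTCA and AGTTCA, with the related hexamers GGGTCA and GGTTCA, make up vitamin D receptor elements and were searched on both strands. At least 1 of them lay in 1 member window, that of Igf2r, and in 39.1% of all windows. The Igf2r match was GGGTCA on the opposite strand, printed as its reverse complement TGACCC, 164 bases before the start. A pair of these hexamers in the same orientation with 3 bases between them was found in 0 of the 11 member windows and in 0.0926% of all windows. A match is a description of letters and not of binding, and elements outside the 250 bases were not searched.

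Of the 23 member probe sets, 17 were bright enough to be tested, at a mean log2 signal above the 40th percentile of all probe sets (6.46, a signal of 88.2), and they covered all 10 genes. Signals are MAS5 intensities, in which the probes of a set are condensed to 1 value and arrays are scaled to a common level. The 6 dim probe sets were 3 of Igf2 and 3 of Igfbp5. The Igf2 ones, all designed on the same sequence record, read between 2.49 and 40.3. The Igfbp5 ones read between 2.39 and 133. No direction is given for them.

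The arrays and the tissue differed in ways that touch every value below. Deficient arrays 1 and 2 stood apart on the first principal component, at 43.1 and 46.4 against -26.2 to -18.5 on the other 4 arrays. Their bacterial hybridisation controls were 7.27 and 10.8 times the adequate mean, against 0.985 times on deficient array 3, and their beta-actin 3' over 5' ratios were 7.56 and 6.80, against 2.35 to 4.81 on the others. Because the controls were high only on deficient arrays 1 and 2, a fit with them as a covariate cannot separate diet from whatever set those arrays apart. Among adipocyte markers, Fabp4 lay at the 93.3rd percentile and Lpl at the 87.8th, but the defining markers of mature fat cells Adipoq, Plin1, Cidec and Lep were under the cutoff on average; 9 of 16 adipocyte markers on the array were tested. Signals summed over 12 fibroblast and progenitor markers ran from 90111 to 106263 in the adequate group. Sums of 186683 and 192043 were read on deficient arrays 1 and 2, whereas deficient array 3 had 94757. Such sums rest on the brightest genes, here collagens and Lum. Of the 12 markers 7 were higher and 5 lower with deficient feed (Thy1 -0.92, Dlk1 -0.33, log2). As a mean log2 deviation from the adequate mean, with equal weight to each gene, deficient array 1 was highest (0.38). Adequate array 3 (0.27) came next, before deficient array 2 (0.23). The place of adequate array 3 leans on Ly6al, a marker near the cutoff (40.5th percentile), which read 450 there. Elsewhere Ly6al read between 38.6 and 95.9, so nothing is drawn from that order. The sum over 14 smooth muscle and pericyte markers ran from 96877 to 117524 in the adequate group and from 120154 to 189878 in the deficient group, with 8 of 14 higher and 6 lower (Rgs5 -0.55, Smtn -0.47, log2). At an unadjusted p under 0.05 by limma, 6 of the 14 were higher and 1 lower, against 14.9% of all named genes in either direction. The groups did not overlap for 6 of the 14, against 18.2% of all named genes. The sum over 12 endothelial markers ran from 17932 to 19050.0 in the adequate and from 14442 to 17099.5 in the deficient group, with 4 of 12 higher and 8 lower. At an unadjusted p under 0.05 by limma, 0 of the 12 were higher and 4 lower, and the groups did not overlap for 3 of the 12. For hepatocyte markers, 7 of which were tested, adequate array 3 read 6751 in sum, against 1452 to 3112 on the other arrays. The sum over 3 intestinal epithelium markers was likewise highest there, at 3141 against 732 to 1007. Lymphocyte markers were lower with deficient feed in 8 of 8 (4 at an unadjusted p under 0.05, 0 adjusted by limma, median log2 change -0.62) and macrophage markers in 9 of 12 (median -0.27). The sums of both lists overlapped between the diets, with deficient array 3 (4983 and 15466) above adequate array 2 (4063 and 14300). Of all tested probe sets 44.7% were higher with deficient feed. Over all named genes the median log2 change was -0.09, and 14.9% had an unadjusted p under 0.05 by limma in either direction. These cell types express members of the family, and the part of such differences in the results was not tested. In whole tissue, fewer cells of a type and less RNA per cell cannot be told apart.

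Newborn mesenterial fat gave high signals for all 10 genes of the set, led by Igf2 and Igfbp7. Igf2 lay at the 99.7th percentile of all probe sets, with a mean log2 signal of 14.06 ± 0.25 (SD, n = 6 arrays). Igfbp7, a secreted protein that binds the ligands weakly and is abundant in vessel walls, lay at the 99.3rd, with 13.26 ± 0.09 (SD, n = 6). Each gene is represented by its brightest probe set. Igfbp4 was the lowest of the 10, at the 82.1st percentile. Probe sets differ in affinity and the array gives no value per length, so this is an order of signals and not of transcript amounts.

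**Figure D1:**
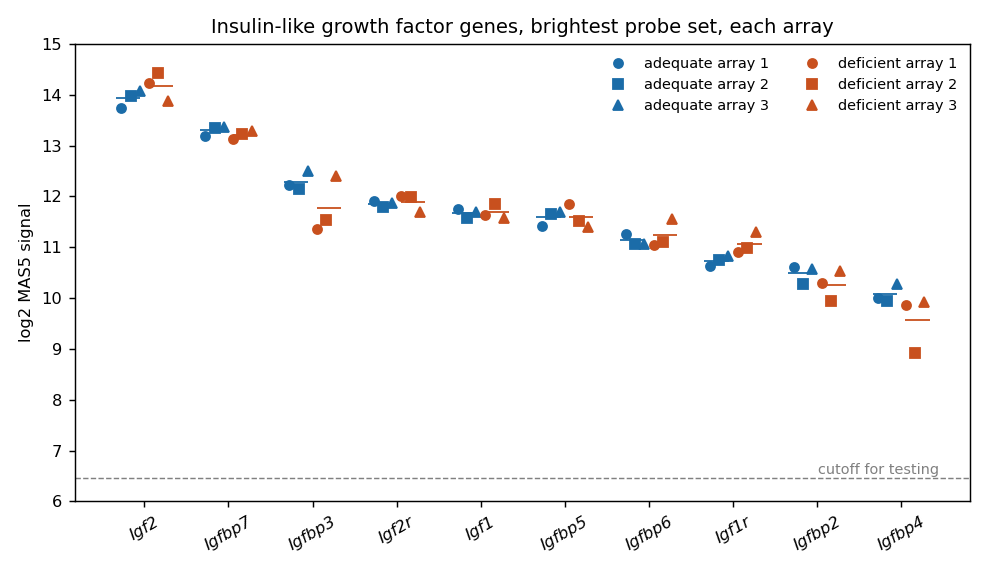
log2 MAS5 signal (y axis) of the brightest probe set of each of the 10 genes (x axis, ordered by mean signal) on each of 6 arrays, with group means as lines (n = 3 each) and the cutoff for testing (6.46) dashed. Igf2 and Igfbp7 were highest on every array, and Igfbp3 fell among lower genes on deficient arrays 1 and 2 but not on deficient array 3.

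Igf2, Igfbp7, Igf1r, Igfbp2 and Igfbp4 held places 1, 2, 8, 9 and 10 on all 6 arrays. After Igfbp7 came Igfbp3 at 12.03, Igf2r at 11.88, Igf1 at 11.68, Igfbp5 at 11.59, Igfbp6 at 11.18, Igf1r at 10.90, Igfbp2 at 10.37 and Igfbp4 at 9.82, all mean log2 signals. Some neighbours did not differ beyond their spread. Igfbp3 exceeded Igf2r on 4 of 6 arrays, and its SD over arrays (0.47) was wider than the gap of 0.15. Igf1 exceeded Igfbp5 on 3 of 6 arrays, with a gap of 0.09. Igfbp5 exceeded Igfbp6 on 5 of 6. Every other neighbouring pair kept its order on 6 of 6 arrays. When a gene's tested probe sets were averaged, 5 of the 10 genes kept their place.

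The diet comparison asks whether vitamin D in the dams' feed went with a different level of these genes in the newborns. By limma, with Benjamini-Hochberg adjustment over all 18625 tested probe sets, 0 of the 17 member probe sets and 0 of the 10 genes passed an adjusted p of 0.05, and so did 0 probe sets in all (0%). The smallest adjusted p was 0.344, both among the members and overall. At an unadjusted p under 0.05 there were 2 of the 17 member probe sets, 1 of Igfbp5 (higher, as were 6.03% of all tested probe sets) and 1 of Igf1 (lower, as were 8.18%), against 14.2% of all in either direction. The groups did not overlap for 3 of the 17, against 17.4% of all. These were 1 of Igf1r, higher with deficient feed (6.55% of all), and those of Igf1 and Igfbp4, lower (10.8% of all). By brightest probe set, 6 genes had higher and 4 lower values in the deficient group, with a median log2 change of 0.01, against -0.09 over the 10591 named genes tested.

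**Figure D2:**
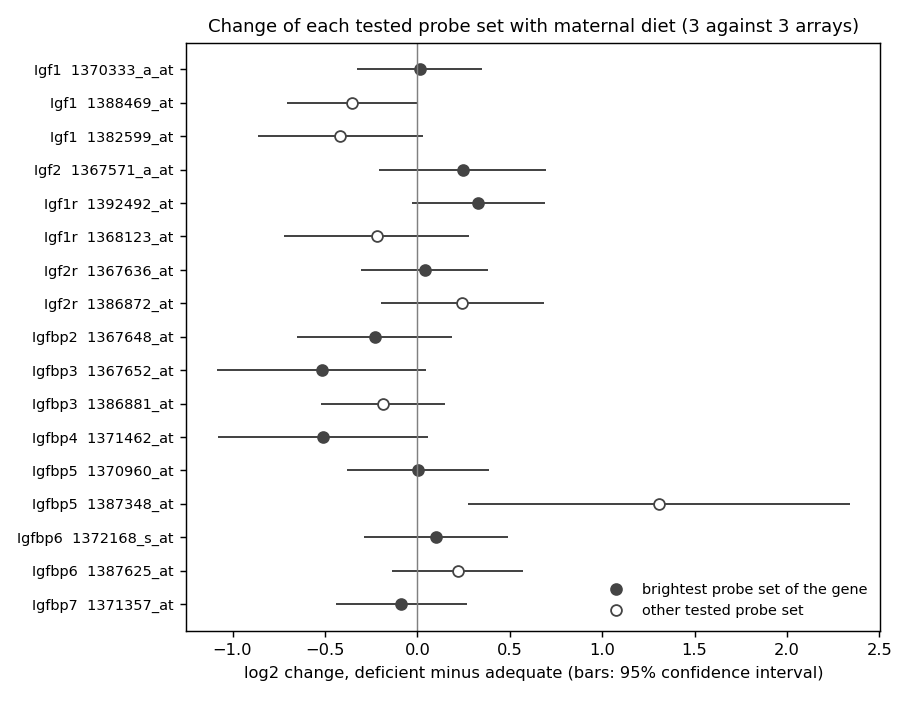
log2 change, deficient minus adequate (x axis), with 95% confidence intervals from limma, for the 17 tested probe sets (y axis, gene and probe set). Filled points are the brightest probe set of a gene and open points the others. Intervals of 15 of the 17 include 0; those of Igfbp5 probe set 1387348_at and Igf1 probe set 1388469_at do not, and neither passed the adjusted threshold.

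Igf2, the main growth factor of fetal life, read 13692, 16205 and 17243 with adequate feed and 19294, 21934 and 15039.8 with deficient feed (probe set 1367571_a_at, MAS5 signal). Deficient arrays 1 and 2 were above every adequate array and deficient array 3 was within their range. The mean log2 signals were 13.93 ± 0.17 with adequate and 14.18 ± 0.28 with deficient feed (SD, n = 3 each). The log2 change was 0.24 ± 0.20 (SE), with a 95% interval of -0.20 to 0.69 and an adjusted p of 0.548 by limma. Its direction depended on the scaling, since the change was -0.23 after quantile normalization. With deficient array 3 alone it was -0.06, and without that array it was 0.40, with an adjusted p of 0.048.

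Igf1, the ligand that growth hormone induces after birth, was measured by 3 tested probe sets with different patterns over the arrays. The brightest, 1370333_a_at, read 3459.6, 3054 and 3296 with adequate feed and 3173, 3688 and 3052 with deficient feed. The groups overlapped, and the log2 change was 0.01 ± 0.15 (SE), with a 95% interval of -0.32 to 0.34. Probe set 1388469_at read 3337, 2583 and 3312 against 2300.4, 2387 and 2496. All 3 deficient arrays lay below all adequate arrays there, with a log2 change of -0.35 ± 0.16 (SE), an unadjusted p of 0.048 and an adjusted p of 0.350 by limma. Probe set 1382599_at read 1068, 743 and 1042 against 616, 671 and 842, an overlapping pair of groups, with a change of -0.42 ± 0.20 (SE). The lower pair of probe sets varied together over the 6 arrays (Pearson's r 0.949), and each of them varied little with the brightest (0.195 and 0.075). These correlations are descriptions over arrays that share the platform and its scaling.

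Igf1r, the receptor kinase for both ligands, also had probe sets that disagreed. Probe set 1392492_at read 1588, 1718 and 1822 with adequate feed and 1921, 2025 and 2535 with deficient feed. Every deficient array was above every adequate one, with a log2 change of 0.33 ± 0.16 (SE), a 95% interval of -0.03 to 0.68 and an adjusted p of 0.363 by limma. It was highest on deficient array 3: with that array alone the difference from the adequate mean was 0.57, a single array with no spread of its own. Probe set 1368123_at read 739, 951 and 1006 against 668, 633 and 1057, with a change of -0.22 ± 0.22 (SE). Here deficient arrays 1 and 2 were below every adequate array and deficient array 3 above. The mean of both probe sets changed by 0.05.

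Igf2r, the clearance receptor for Igf2, had groups that overlapped in both of its probe sets. Probe set 1367636_at read 3845, 3566 and 3739 with adequate feed and 4114, 4084 and 3313 with deficient feed, with a log2 change of 0.04 ± 0.15 (SE) and a 95% interval of -0.30 to 0.38. Of the 6 arrays, deficient arrays 1 and 2 were the highest and deficient array 3 the lowest. Probe set 1386872_at read 2931, 2309 and 3685 against 3744, 3776 and 2929, with a change of 0.24 ± 0.20 (SE). Deficient arrays 1 and 2 were again above every adequate array, and the change was 0.07 without adequate array 2 and 0.41 without adequate array 3.

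Igfbp3, the main carrier of the ligands in blood and a known vitamin D target gene in cultured human cells, had probe sets of nearly equal brightness. The brighter by a narrow margin, 1367652_at, read 4770.2, 4520.3 and 5768 with adequate feed and 2625, 2974 and 5425 with deficient feed. Deficient arrays 1 and 2 were far below the adequate arrays, and deficient array 3 was within their range. The log2 change was -0.52 ± 0.25 (SE), with a 95% interval of -1.08 to 0.04 and an adjusted p of 0.363 by limma. Without deficient array 3 it was -0.84, with an adjusted p of 0.0040, and with that array alone it was 0.12. Probe set 1386881_at read 4165, 4359 and 4757 against 4204, 3583 and 3881, with a change of -0.19 ± 0.15 (SE), and the value was -0.19 both with deficient array 3 alone and without it.

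**Figure D3:**
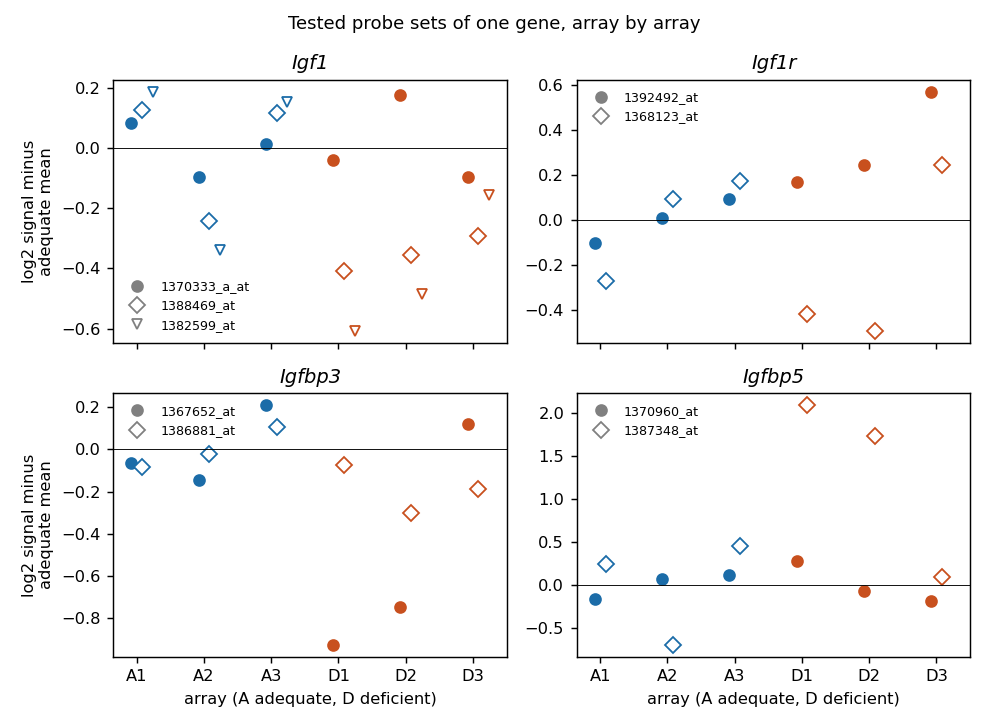
log2 signal minus the adequate mean (y axis) of each tested probe set of Igf1, Igf1r, Igfbp3 and Igfbp5 on the adequate arrays (A1 to A3, blue) and deficient arrays (D1 to D3, orange). Filled circles are the brightest probe set of each gene. In Igfbp5, probe set 1387348_at lies 2.09 and 1.74 above the adequate mean on D1 and D2, whereas 1370960_at lies 0.27, -0.07 and -0.19 from it on D1, D2 and D3.

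Igfbp5, a binding protein made by mesenchymal and smooth muscle cells that also binds matrix, gave, in its dimmer tested probe set, the largest log2 difference of the 17 tested probe sets, and the widest disagreement between tested probe sets of a gene. Probe set 1370960_at read 2732, 3215 and 3318 with adequate feed and 3719, 2932 and 2699.6 with deficient feed. The log2 change was 0.00 ± 0.17 (SE), with a 95% interval of -0.37 to 0.38. Probe set 1387348_at read 1742, 903 and 2009 against 6261, 4896 and 1558. Deficient arrays 1 and 2 were each over 2 times the highest adequate array, and deficient array 3 was within the adequate range. The change was 1.31 ± 0.46 (SE), a fold of 2.47, with a 95% interval of 0.28 to 2.33, an unadjusted p of 0.018 and an adjusted p of 0.344 by limma. It was 1.92 without deficient array 3 (adjusted p 0.0031), 0.09 with that array alone, and 0.26 when the hybridisation controls entered the fit. Both probe sets averaged gave a change of 0.66 (adjusted p 0.318 by limma). The pair's changes differed by 1.30, at the 99.2nd percentile of the 2502 genes with at least 2 tested probe sets. The summed fibroblast and smooth muscle signals given above were also highest on deficient arrays 1 and 2, though 5 of 12 and 6 of 14 of these markers were lower with deficient feed. At an unadjusted p under 0.05 by limma, 2 of the 12 and 6 of the 14 were higher, and 1 of each list was lower. Among all named genes that share was 14.9% in either direction. The part of these cell types in this value was not tested.

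Disagreement between probe sets of a gene was common on these arrays. Over those 2502 genes the 2 brightest probe sets had a median r of 0.25 over the 6 arrays, and their changes had opposite signs in 41.3% of genes and differed by a median of 0.30. The ratio between them did not overlap between the diets in 2 of the 6 members with more than 1 tested probe set (Igf1 and Igf1r), against 15.7% of all such genes. Igf2r and Igfbp6 had closer pairs, with r of 0.657 and 0.652.

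Igfbp4, which binds both ligands and is cut by the protease Pappa, was measured by 1 probe set, 1371462_at. It read 1030.4, 990.5 and 1238 with adequate feed and 926, 486 and 969 with deficient feed. All deficient arrays were below all adequate arrays, by a small margin except on deficient array 2. The log2 signal was 10.08 ± 0.17 against 9.57 ± 0.56 (SD, n = 3 each), a change of -0.51 ± 0.25 (SE) with a 95% interval of -1.07 to 0.05 and an adjusted p of 0.366 by limma. Without deficient array 2 the change was -0.19, and with the hybridisation controls as a covariate it was -0.11.

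Igfbp2, an abundant binding protein of fetal blood and of preadipocytes, read 1564, 1240.3 and 1516 with adequate feed and 1252, 983 and 1482 with deficient feed. The groups overlapped, with a log2 change of -0.23 ± 0.19 (SE), a 95% interval of -0.64 to 0.18 and an adjusted p of 0.544 by limma. Without deficient array 2 the change was -0.07, without deficient array 3 -0.37, and with that array alone 0.05. Igfbp2 and Igfbp4 were the most alike of the 45 pairs of members over the 6 arrays, with Pearson's r of 0.884, and Igf2 and Igfbp2 the most opposed, with -0.852.

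Igfbp6, a binding protein that prefers Igf2, had a pair of tested probe sets with higher values on deficient array 3. Probe set 1372168_s_at read 2447, 2151 and 2153 with adequate feed and 2108, 2201 and 3017 with deficient feed, and 1387625_at read 1662, 1395 and 1594 against 1564, 1905 and 1951. Their log2 changes were 0.10 ± 0.17 and 0.22 ± 0.16 (SE), and the groups overlapped in both. With deficient array 3 alone that of the brighter set was 0.43, from 1 array with no spread of its own.

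Igfbp7 varied least over the 6 arrays. It read 9393, 10349 and 10547 with adequate feed and 9004, 9550.5 and 9974 with deficient feed, which overlap. The log2 change was -0.09 ± 0.16 (SE), with a 95% interval of -0.43 to 0.26 and an adjusted p of 0.801 by limma, and it was -0.38 after quantile normalization (unadjusted p 0.033, adjusted p 0.361).

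Over the set, deficient array 3 lay within the range of the adequate arrays in 7 of the 17 tested probe sets, against 45.6% of all tested probe sets. Deficient arrays 1 and 2 were both outside that range on the same side in 10 of the 17, against 51.8% of all. Leaving out deficient array 3 gave 3 member probe sets past the adjusted threshold by limma (Igf2, Igfbp3 1367652_at and Igfbp5 1387348_at), where 19.4% of all tested probe sets passed (8.75% higher, 10.7% lower). Array weights, which limma estimates from each array's scatter about the fitted group means and not from the quality measures above, were also tried. They gave 4 member probe sets (Igf1 1382599_at, Igfbp3 1367652_at, Igfbp4 and Igfbp5 1387348_at), where 18.6% passed (8.14% higher, 10.4% lower). The members' shares were near those of all probe sets in each case.

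The genes whose pattern over the 6 arrays was most like that of Igf2 were Rplp0, a ribosomal protein gene, with Pearson's r of 0.993, Rnf139, which encodes a ubiquitin ligase, with 0.992, and H19, the imprinted neighbour of Igf2, with 0.986, among 10590 other named genes. H19 read 10685, 12367 and 13675 with adequate feed and 15468, 17240.4 and 10895 with deficient feed, so the 6 arrays fell in the same order as for Igf2. For Igf1 the nearest were Dnajb9, a chaperone cofactor of the endoplasmic reticulum, with 0.987, Cntnap1 with 0.960 and the chemokine Cxcl13 with 0.954. These values are descriptions over 6 arrays, the highest among many genes, and all points share the scaling of the array.

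**Figure D4:**
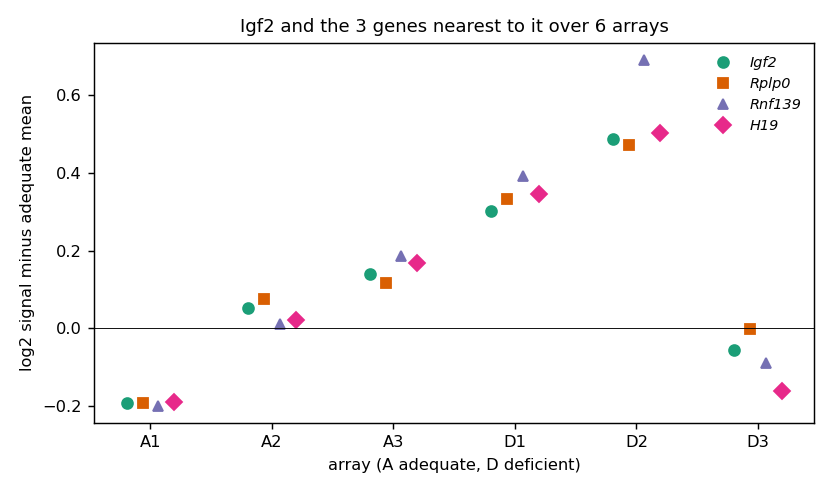
log2 signal minus the adequate mean (y axis) of Igf2 and of the 3 genes with the highest Pearson's r to it on the adequate (A1 to A3) and deficient (D1 to D3) arrays. All 4 genes were highest on D2, then D1, and on D3 they lay between A1 and A2.

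The rest of the pathway was read from a list of 46 partner genes: insulin and its receptor, adaptors, proteases and their inhibitors, Igf2 mRNA-binding proteins, the growth hormone axis and downstream kinases. Of these, 43 were named on the array and 32 were tested, 15 with higher and 17 with lower values in the deficient group and a median log2 change of -0.02. None passed the adjusted threshold by limma, where 0% of all probe sets did. At an unadjusted p under 0.05, 0 were higher and 2 lower, against 14.9% of all named genes in either direction. The groups did not overlap for 3 of the 32, against 18.2%. Those with the smallest p were the kinase Akt1 (-0.39 ± 0.15, SE), the lysosomal protease Ctsd (-0.64 ± 0.26), the mRNA-binding protein Igf2bp2 (0.52 ± 0.26) and the matrix protease Mmp2 (-0.34 ± 0.17), with adjusted p between 0.344 and 0.366. Akt1 read 3354, 3754 and 3632 with adequate feed and 2551, 2567 and 3125 with deficient feed, which did not overlap. Ctsd read 2049.8, 2252 and 2432 with adequate feed and 1119.8, 1133 and 2337 with deficient feed, where only deficient arrays 1 and 2 were below the adequate range.

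Genes that control the ligands gave signals over the whole range. Igf2bp2 lay at the 96.1st percentile and Igf2bp3 at the 91.2nd, whereas Igf2bp1, at 72.8 to 129, was just under the cutoff on average. H19 lay at the 99.5th percentile (log2 change 0.23 ± 0.21, SE) and the imprinted adaptor Grb10, which restrains receptor signalling, at the 99.0th (0.31 ± 0.20). Grb10 read 7205, 6928 and 7737 with adequate feed and 10587, 10527 and 6664 with deficient feed. Every adequate array was below deficient arrays 1 and 2 and above deficient array 3. The insulin receptor Insr lay at the 62.8th percentile (0.18 ± 0.23), the growth hormone receptor Ghr at the 63.9th (-0.01 ± 0.24), and the adaptors Irs1 and Irs2 at the 47.6th and 75.4th (0.09 ± 0.46 and -0.36 ± 0.27). The stanniocalcin Stc1, an inhibitor of Pappa, was tested in 1 of 3 probe sets (0.17 ± 0.29). Stc2, the liver protein Igfals and Igfbp1 were under the cutoff. Igfbp1, a liver binding protein, read 44.1, 70.4 and 164 with adequate feed and 146, 67.9 and 74.8 with deficient feed. Its highest value fell on adequate array 3, where the hepatocyte markers were also highest, and the part of liver RNA in it was not tested. Pappa, Irs4 and Cilp had no probe set named here.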

How the data were processed

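Gene expression was read on 6 arrays of the Affymetrix Rat Genome 230 2.0 type, 3 per diet. The series' deposited table holds intensity values on a linear scale, and per the submitters' processing notes they were made with MAS5 and Affymetrix Expression Console, versions not given in the sources used here. Each array had a 2% trimmed mean of 500.1 or 500.2 in the deposited values, so arrays are compared after scaling. The number of arrays limits the precision.

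The table held 31099 probe sets, of which 57 controls were not tested. The log2 of each signal was taken with no offset. Probe sets below the 40th percentile of mean log2 signal were not tested, which left 18625. Diets were compared per probe set, deficient minus adequate, by limma 3.58.1 in R 4.3.3 with trended moderation of variances. Tests were two-sided, with Benjamini-Hochberg adjustment over all tested probe sets. This fit was tested on simulated data. Genes were named from the platform annotation where it gave 1 symbol, and all 10 member Entrez identifiers matched a RefSeq table (GRCr8). The brightest tested probe set stands for a gene. Named partners were those with the 4 smallest p and a list of names. Likeness was Pearson's r of log2 signals. The members and lists were chosen with earlier results of these data known. Figures were drawn with matplotlib 3.10.9.

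The other settings tried were another scaling (quantile normalization or median centring), another filter (none, or the 60th percentile), an offset of 50 and other variance models (untrended or robust moderation, array weights, a replicate block). Each array was also left out, deficient array 3 was used alone, the hybridisation controls entered as a covariate, and probe sets were averaged per gene.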

Additional observations from a re-analysis of the deposited data

How the results depend on the processing

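The number of probe sets past the adjusted threshold by limma ran from 0 to 3614 with 1 array left out. That of member genes ran from 0 to 2 of 10 and that of partner genes from 0 to 8 of 32. The upper values were those without deficient array 3, where 19.4% of all tested probe sets passed. With array weights these counts were 3462, 2 and 4, where 18.6% of all probe sets passed. The 2 member genes were Igfbp3 and Igfbp4. Under every other setting run these counts were 0, the replicate block included, where 3235 probe sets had an unadjusted p under 0.05, against 2647 in the comparison as reported. Same-numbered arrays are not known to be paired (correlation of their deviations 0.11, 0.15 and 0.01). The order of signals kept 10 of 10 places with any array left out, and 5 when probe sets were averaged per gene.

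The log2 changes here are of the brightest probe set of each gene, except where probe sets were averaged. With 1 array left out, the log2 change ran from -0.069 to 0.067 for Igf1, from -0.014 to 0.14 for Igf2r, from -0.13 to 0.10 for Igfbp5 and from -0.061 to 0.20 for Igfbp6, and so changed sign. Quantile normalization turned Igf1 (-0.038), Igf2 (-0.23), Igf2r (-0.043) and Igfbp5 (-0.046), and array weights turned Igfbp6 (-0.040). Averaging probe sets per gene turned Igf1 (-0.25) and moved Igfbp5 to 0.66 (unadjusted p 0.042) and Igf1r to 0.05. With deficient array 3 alone the change was -0.097 for Igf1, -0.056 for Igf2, -0.17 for Igf2r, 0.049 for Igfbp2, 0.12 for Igfbp3 and -0.19 for Igfbp5. With the hybridisation controls as a covariate it was -0.091, -0.085, -0.14, 0.085, 0.052 and -0.18 for the same genes. The cause was not tested. By brightest probe set and sign alone, Igf1r, Igfbp4 and Igfbp7 kept their direction under every setting run. Their sizes ranged from 0.05 to 0.57, from -0.72 to -0.11 and from -0.38 to -0.02, and the other Igf1r probe set had the opposite sign (-0.22). Every other dimmer tested probe set kept its sign in each fit per probe set. Those of Igf1 were lower (-0.47 to -0.27 for 1388469_at, -0.59 to -0.15 for 1382599_at), as was that of Igfbp3. Those of Igf2r, Igfbp5 and Igfbp6 were higher, that of Igf2r by only 0.0035 with deficient array 3 alone.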
